A study of Mus musculus with 6 samples.

Results

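The genes described here were 9 genes by which red pulp macrophages, the iron-recycling macrophages of the spleen, are recognised: Spic, Cd163, Cd5l, Treml4, Vcam1, Itgad, Siglec1, Adgre1 and Aif1. They were chosen by name, and all 9 were found among the 54532 genes of the deposited tables. RNA of sorted cells from C57BL/6 mice, supplied at 6 to 8 weeks of age, was sequenced, with 1 library per group and 6 libraries in all. Macrophages were sorted from mice without leukemia given PBS (WT) or iron dextran (WT/FE), and from mice carrying transplanted GFP+ leukemia cells with the MLL-AF9 fusion gene, given PBS (MA9) or iron dextran (MA9/FE). Leukemia cells were sorted from MA9 and MA9/FE mice. Each mouse given iron received iron dextran (25 mg/mL) into the peritoneum 6 times, 0.2 mL at a time.

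By the labels the macrophages came from the spleen and the leukemia cells from the BM. The methods of the study describe BM macrophages instead, and which of them applies to these libraries was not settled. By the methods, macrophages were gated as GFP- cells with low Gr-1, F4/80 and intermediate CD115, with intermediate or low side scatter. Adgre1 encodes F4/80 and Csf1r encodes CD115, so both proteins were used to select the cells. Because every group had 1 library, no difference between groups could be tested against the spread between mice, and no p-value is given. The intervals are 95% intervals of counting error only. In bulk samples, fewer cells of a type and less RNA per cell cannot be told apart.

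Red pulp macrophages take up aged red blood cells, break down their heme and return the iron through ferroportin. Their formation depends on the transcription factor SPI-C, which heme can induce by relieving repression by BACH1. They carry F4/80 and VCAM1 and take up hemoglobin through CD163, and several of these proteins are also made by macrophages of the BM that surround erythroblasts.

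The sequences before the start of 3 of the genes are shown because Spic and Cd5l passed 2-fold between MA9/FE and MA9 macrophages, Cd5l also between WT/FE and WT, and Treml4 held the one match to an ETS motif of the kind bound by SPI-family factors. RefSeq windows (GRCm38.p6) were at hand for Spic, Cd163, Cd5l, Treml4 and Aif1, which is 5 of the 9 genes. Each window holds the 250 bases before the start annotated by RefSeq, written 5′ to 3′ on the strand of the gene, and capitals mark a motif match. The RefSeq start of Spic differs from the GENCODE start used for its extent below, and its window lies within that extent.
Spic, chr10:88683024-88683273, minus strand: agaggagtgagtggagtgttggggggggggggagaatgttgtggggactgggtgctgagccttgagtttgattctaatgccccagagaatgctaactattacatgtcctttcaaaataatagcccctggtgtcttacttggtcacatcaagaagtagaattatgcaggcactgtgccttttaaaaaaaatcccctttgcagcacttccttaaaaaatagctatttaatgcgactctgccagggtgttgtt
Cd5l, chr3:87357631-87357880, plus strand: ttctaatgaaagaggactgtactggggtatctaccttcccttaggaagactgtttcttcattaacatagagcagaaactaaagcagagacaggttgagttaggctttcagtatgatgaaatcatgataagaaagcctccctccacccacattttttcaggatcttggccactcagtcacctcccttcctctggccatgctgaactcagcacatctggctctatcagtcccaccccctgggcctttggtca
Treml4, chr17:48264045-48264294, plus strand: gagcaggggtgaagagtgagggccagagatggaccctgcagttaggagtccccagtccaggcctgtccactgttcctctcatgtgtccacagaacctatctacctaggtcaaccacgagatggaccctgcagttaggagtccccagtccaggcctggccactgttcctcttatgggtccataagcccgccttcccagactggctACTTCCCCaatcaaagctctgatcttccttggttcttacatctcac
The ETS motif GNGGAAGT was searched on both strands and matched in the Treml4 window on the minus strand, 46 bases before the start, and 5.65% of 32851 promoter windows of the same length held it. The interferon-stimulated response element, found in 2.98% of windows, matched in the Aif1 window, which is not printed. The Maf recognition element was searched only in a form with a fixed gap between its outer letters. That form had no match in the 5 windows, but the Cd5l window holds the same outer letters around a wider gap. Forms with a wider gap were not searched. The antioxidant response core TGACNNNGC and the E-box CACGTG also had no match in the 5 windows. As searched, these motifs were found in 0.353%, 10.2% and 6.02% of all windows, in the order named. A match describes the letters in the window and does not show binding.

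The deposited values were FPKM, which scale the reads of a gene by its exon length and by the depth of the library. Depth was between 16085345 and 19518358 reads, and all 54 values of the 9 genes (9 genes in 6 libraries) were whole numbers of reads within 0.05. The 9 genes summed to 164 FPKM in the WT, 270 FPKM in the WT/FE, 168 FPKM in the MA9 and 311 FPKM in the MA9/FE macrophage library. In the leukemia cells the sum was 54.6 FPKM in MA9 and 51.7 FPKM in MA9/FE. The macrophage libraries with iron thus had the highest summed levels and the leukemia cells the lowest.

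**Figure D1:**
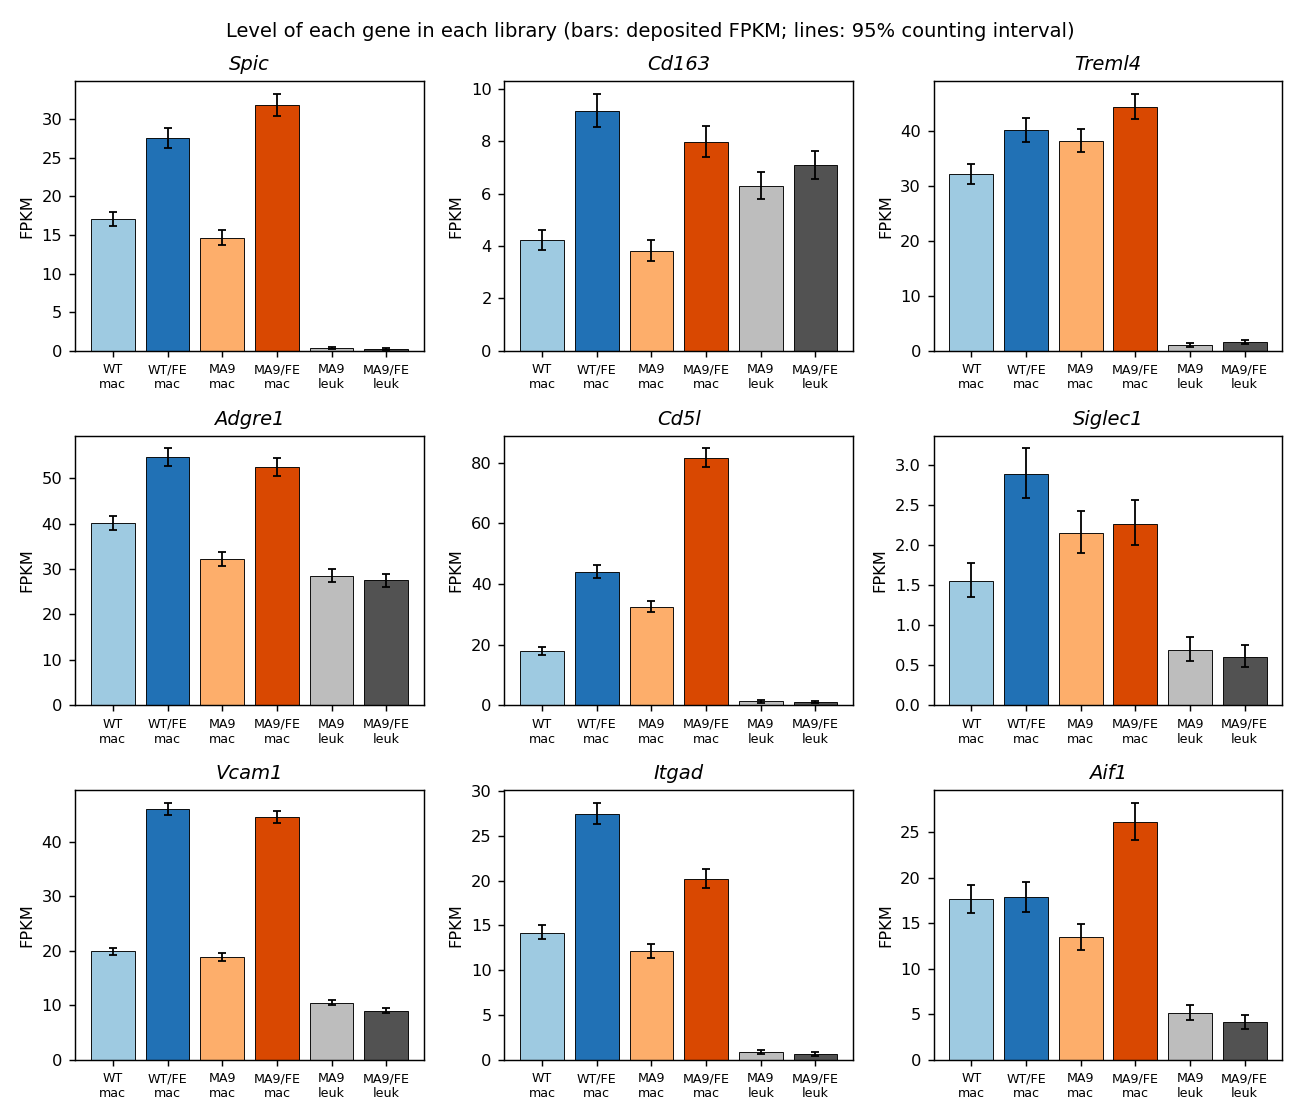
FPKM of each of the 9 genes (vertical axis) in each of the 6 libraries (mac, macrophages; leuk, leukemia cells), with 95% counting intervals as lines. Both macrophage libraries with iron stood above both without iron for all 9 genes, with no overlap of intervals for Spic, Cd163, Cd5l, Vcam1, Itgad and Adgre1, and Spic, Treml4, Cd5l and Itgad were at most 1.54 FPKM in leukemia cells.

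Spic, the transcription factor of red pulp macrophages, lies on chromosome 10 (88674772 to 88685015, minus strand, GRCm38). It was at 17.0 FPKM in WT, 27.6 FPKM in WT/FE, 14.7 FPKM in MA9 and 31.8 FPKM in MA9/FE macrophages. In leukemia cells it was at 0.330 FPKM in MA9 and 0.263 FPKM in MA9/FE, or 23 and 18 reads. The 4 macrophage libraries had counting intervals that did not overlap, with MA9/FE the highest and MA9 the lowest.

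Cd163, the hemoglobin-haptoglobin scavenger receptor (chromosome 6, 124304656 to 124330527, plus strand), had a different distribution. It was at 4.22 FPKM in WT, 9.18 FPKM in WT/FE, 3.80 FPKM in MA9 and 7.97 FPKM in MA9/FE macrophages, and at 6.30 FPKM in MA9 and 7.10 FPKM in MA9/FE leukemia cells. Thus both leukemia cell libraries stood above the macrophage libraries without iron. The intervals of the WT/FE and MA9/FE macrophages overlapped, as did those of MA9/FE macrophages and MA9/FE leukemia cells, of the leukemia cell libraries, and of WT and MA9 macrophages.

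Cd5l, a secreted scavenger receptor cysteine-rich protein also called AIM (chromosome 3, 87357881 to 87371073, plus strand), had the highest single level of the 9 genes. It was at 17.8 FPKM in WT, 44.1 FPKM in WT/FE, 32.5 FPKM in MA9 and 81.6 FPKM in MA9/FE macrophages. In leukemia cells it was at 1.24 FPKM in MA9 and 1.10 FPKM in MA9/FE. It was higher with iron and higher with leukemia, and no intervals of the macrophage libraries overlapped.

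Treml4, a receptor of the TREM family that binds dead cells and is also made by some monocytes and dendritic cells (chromosome 17, 48264295 to 48275360, plus strand), varied the least among the macrophages. Its level was 32.1 FPKM in WT, 40.2 FPKM in WT/FE, 38.2 FPKM in MA9 and 44.4 FPKM in MA9/FE. In leukemia cells its level was 1.02 FPKM in MA9 and 1.54 FPKM in MA9/FE. WT was the lowest macrophage library, and the intervals of MA9/FE and WT/FE, and of WT/FE and MA9, overlapped.

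Vcam1, the adhesion protein that binds integrin α4β1 (chromosome 3, 116109949 to 116129688, minus strand), formed pairs of libraries by iron. Macrophages had 19.9 FPKM in WT and 18.8 FPKM in MA9, against 46.0 FPKM in WT/FE and 44.5 FPKM in MA9/FE. Leukemia cells had 10.45 FPKM in MA9 and 8.95 FPKM in MA9/FE. Within each macrophage pair the intervals overlapped, and between the pairs they did not.

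Itgad encodes CD11d, the integrin chain that pairs with CD18 on these macrophages (chromosome 7, 128154376 to 128223816, plus strand). It was at 14.2 FPKM in WT, 27.5 FPKM in WT/FE, 12.1 FPKM in MA9 and 20.2 FPKM in MA9/FE macrophages, and at 0.818 FPKM in MA9 and 0.621 FPKM in MA9/FE leukemia cells. No macrophage intervals overlapped, and WT/FE was the highest. Of the windows of 100 bases in its transcripts, 7.10% also occur in other genes, Itgax and overlapping transcripts among them. Itgad also overlaps Cox6a2 on the opposite strand, and whether reads were counted by strand was not given in the sources used here. Itgax, which encodes CD11c, was at 159 FPKM in WT, 148 FPKM in WT/FE, 109 FPKM in MA9 and 88.2 FPKM in MA9/FE macrophages. It was thus lower with iron, where Itgad was higher, and lower with leukemia, as Itgad was. The transcript 4931431B13Rik, which overlaps Itgad on the opposite strand and shares some of these windows, followed the order of Itgad, at 5.74 FPKM in WT, 13.8 FPKM in WT/FE, 3.77 FPKM in MA9 and 6.97 FPKM in MA9/FE. Cox6a2, a cytochrome oxidase subunit, was at 11.2 FPKM in WT, 16.4 FPKM in WT/FE, 10.7 FPKM in MA9 and 13.3 FPKM in MA9/FE macrophages. The Itgad level is uncertain to the extent that these genes share its reads.

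Siglec1, the sialic acid receptor CD169 (chromosome 2, 131069220 to 131086765, minus strand), was the lowest of the 9 genes in each macrophage library. Its level was 1.55 FPKM in WT, 2.88 FPKM in WT/FE, 2.15 FPKM in MA9 and 2.26 FPKM in MA9/FE macrophages, from 216 to 346 reads. In leukemia cells 0.694 FPKM was counted in MA9 and 0.604 FPKM in MA9/FE. WT/FE was the highest library and WT the lowest of the macrophages, and the intervals of MA9 and MA9/FE overlapped. CD169 is carried by marginal metallophilic macrophages as well, and of the other genes of the marginal zone list, Marco was at most 11.2 FPKM and Cd209b at most 1.72 FPKM in the macrophage libraries.

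Adgre1, which encodes F4/80 (chromosome 17, 57358691 to 57483527, plus strand), was at 40.1 FPKM in WT, 54.5 FPKM in WT/FE, 32.2 FPKM in MA9 and 52.4 FPKM in MA9/FE macrophages. Leukemia cells had 28.6 FPKM in MA9 and 27.5 FPKM in MA9/FE. The intervals of WT/FE and MA9/FE overlapped, as did those of the leukemia cell libraries. Aif1, the actin-binding protein IBA1 (chromosome 17, 35170991 to 35176068, minus strand), was at 17.6 FPKM in WT, 17.9 FPKM in WT/FE, 13.5 FPKM in MA9 and 26.1 FPKM in MA9/FE macrophages. In leukemia cells Aif1 was at 5.14 FPKM in MA9 and 4.10 FPKM in MA9/FE. Aif1 was the one gene at which WT and WT/FE overlapped and MA9/FE stood above them.

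The libraries sorted as macrophages also held transcripts of other cells, and these were compared with the 9 genes. In the WT library the 10 B cell markers summed to 2141 FPKM, in the WT/FE library to 2016 FPKM, in the MA9 library to 1224 FPKM and in the MA9/FE library to 2114 FPKM, above the sum of the 9 genes in every macrophage library. The 10 dendritic cell markers summed to between 470 and 570 FPKM. The 10 neutrophil markers summed to 4.82 FPKM in WT and 3.07 FPKM in WT/FE, against 1806 FPKM in MA9 and 917 FPKM in MA9/FE. The 10 erythroid markers, led by globin genes, summed to 116 FPKM in WT and 226 FPKM in WT/FE, and to 313 FPKM in MA9 and 526 FPKM in MA9/FE. Thus neutrophil markers separated leukemic from non-leukemic mice, and the erythroid sum was higher with both iron and leukemia. The same neutrophil markers summed to 4548 FPKM in MA9 and 3437.5 FPKM in MA9/FE leukemia cells, above every macrophage library. Whether their reads in the macrophage libraries came from neutrophils or from leukemia cells was not tested. Of the 10 erythroid markers, 7 were higher in WT/FE than in WT and 6 in MA9/FE than in MA9, and Klf1, Ermap and Tfrc were lower with iron in both. Their median level was 4.37 FPKM in WT, 5.11 FPKM in WT/FE, 19.7 FPKM in MA9 and 16.1 FPKM in MA9/FE. T and NK cell markers were between 140 and 205 FPKM, monocyte markers, Treml4 among them, between 245 and 458 FPKM, and stromal and endothelial markers between 24.2 and 32.4 FPKM. The part of these cells in the levels of the 9 genes was not tested.

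The first comparison asked how the 9 genes differed between WT/FE and WT macrophages. All 9 were higher in WT/FE, where 46.7% of the 16754 genes with at least 10 reads in 1 of the libraries were higher by any amount. All 9 passed this minimum in every comparison. A gene was called when its fold on log2(FPKM + 1) was at least 2 after scaling by the trimmed mean of M values, a scale that understates the difference of low genes. Cd5l and Vcam1 were called higher, which was 2 of 9 where 0.728% of genes were called higher, and none of the 9 was called lower, where 0.543% were. The median log2 fold change of the 9 genes was 0.66, against -0.01 for all genes tested. By reads, Cd5l was 2.47 times as high (2.26 to 2.71) and Vcam1 2.31 times (2.21 to 2.40). Cd163 was 2.16 times as high by reads (1.93 to 2.43), and the addition of 1 FPKM to its low level brought it to a log2 fold change of 0.96. Itgad was 1.93 times, Siglec1 1.85 times, Spic 1.61 times, Adgre1 1.35 times and Treml4 1.25 times as high, with intervals above 1. Thus all but Aif1 were higher beyond counting error. Aif1 had a ratio of 1.01 (0.889 to 1.15).

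The same question was asked in leukemic mice with MA9/FE against MA9 macrophages. Again all 9 genes were higher with iron, where 51.8% of 16509 genes tested were higher by any amount. Spic, Cd5l and Vcam1 were called higher, 3 of 9 where 1.2% of genes were called higher, and none was called lower, where 1.26% were. The median log2 fold change was 0.93 for the 9 genes and 0.01 for all genes tested. Cd5l was 2.57 times as high (2.40 to 2.76), Vcam1 2.43 times (2.32 to 2.54) and Spic 2.23 times (2.06 to 2.41). Cd163 was 2.15 times, Aif1 1.99 times, Itgad 1.71 times, Adgre1 1.67 times and Treml4 1.19 times as high, with intervals above 1. Siglec1 had a ratio of 1.08 (0.906 to 1.29). Fold changes in this comparison also varied with exon length, and without that trend the genes called higher and lower went from 198 and 208 to 128 and 298. The 9 genes still had 3 called, with a median of 0.77.

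**Figure D2:**
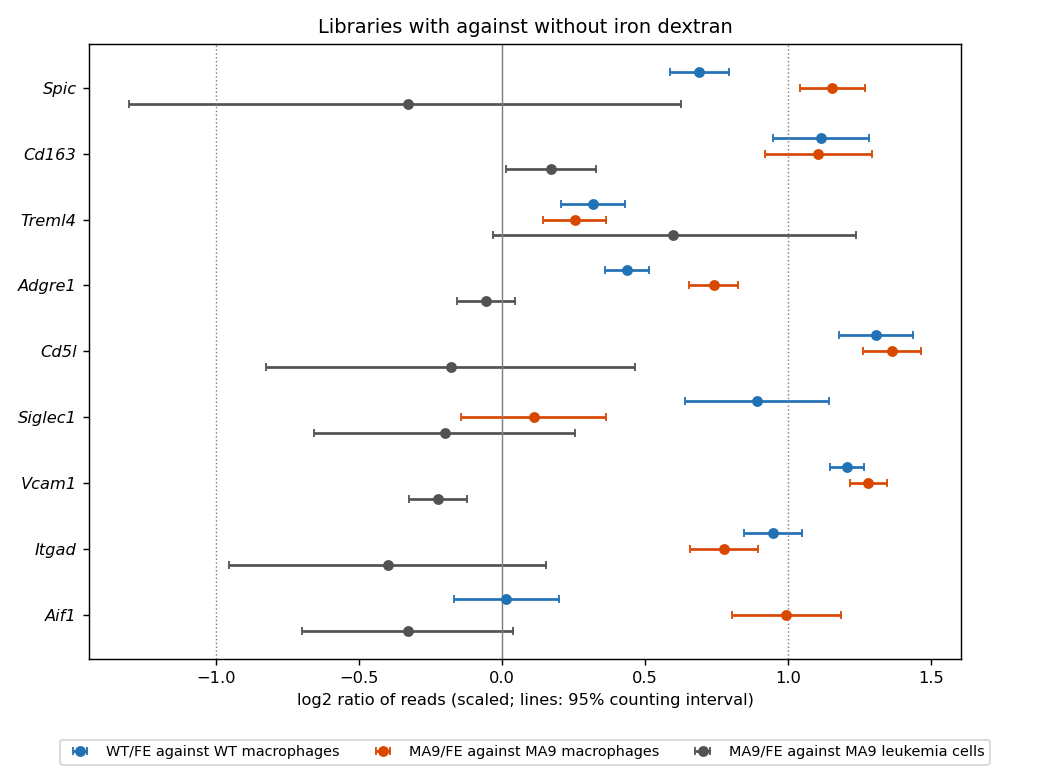
Log2 ratio of scaled reads (horizontal axis) of the 9 genes between libraries with and without iron, for WT macrophages, MA9 macrophages and leukemia cells, with 95% counting intervals; dotted lines mark 2-fold. The macrophage points lie above 0 for all 9 genes, from 0.01 to 1.36, whereas in leukemia cells the intervals of 7 genes cross 0.

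The size of the difference with iron was set side by side in WT and MA9 mice, as the log2 ratio of reads in MA9 minus that in WT. Cd5l, Vcam1, Cd163 and Treml4 had intervals that included 0, with differences of 0.06 (-0.11 to 0.22), 0.07 (-0.01 to 0.16), -0.01 (-0.26 to 0.24) and -0.06 (-0.22 to 0.09). Aif1 had the largest difference, 0.98 (0.72 to 1.24), with a ratio near 1 in WT and near 2 in MA9. Spic differed by 0.46 (0.31 to 0.62) and Adgre1 by 0.30 (0.19 to 0.42) in the same direction. Siglec1 differed by -0.78 (-1.13 to -0.43) and Itgad by -0.17 (-0.33 to -0.02), with the larger ratio in WT. These intervals hold no variation between mice, so a difference in response to iron was not tested.

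General macrophage markers were higher with iron as well. Of 14 such genes outside the 9, all 14 were higher in WT/FE than in WT, 3 of them called, with a median log2 fold change of 0.81. In MA9/FE against MA9 all 14 were higher, 6 of them called, with a median of 0.89. Csf1r, a gene of the gate, is among the 14, as Adgre1 is among the 9. The part of the gate in their levels between macrophage libraries was not tested. C1qa, a subunit of complement C1q, was at 67.7 FPKM in WT and 137 FPKM in WT/FE, and at 62.8 FPKM in MA9 and 223 FPKM in MA9/FE. Mertk, a receptor for dying cells, was at 8.38 FPKM in WT and 20.0 FPKM in WT/FE, and at 8.68 FPKM in MA9 and 15.7 FPKM in MA9/FE. Lyz2 and Apoe were the highest of the 14 in every macrophage library, at 258 and 208 FPKM in WT and 528 and 453 FPKM in MA9/FE. The 14 summed to 964 FPKM in WT macrophages, but to 1323 FPKM in MA9 and 1679 FPKM in MA9/FE leukemia cells. Lyz2 alone was at 1017 and 1348 FPKM in those leukemia cells, so the sum does not measure macrophage content alone. Relative to the summed level of the 14 markers, the 9 genes stood at 17.1% in WT and 17.9% in WT/FE, and at 16.2% in MA9 and 14.7% in MA9/FE. On that relative scale none of the 9 was called in either comparison, instead of 2 and 3. As a percentage of the marker sum, Spic, Cd163, Cd5l, Vcam1, Itgad and Siglec1 were higher in WT/FE than in WT, and Treml4, Adgre1 and Aif1 were lower. Siglec1 was at 0.161% in WT and 0.191% in WT/FE, and the addition of 1 FPKM turned this to a log2 fold change of -0.04. In MA9/FE against MA9, the percentages of Spic (1.504% against 1.417%), Cd5l (3.85% against 3.14%), Vcam1 (2.10% against 1.82%) and Cd163 (0.376% against 0.367%) were higher, and those of the other 5 genes were lower. Cd163, too, turned with the addition of 1 FPKM, to a log2 fold change of -0.13. The higher level of most of the 9 genes with iron therefore went together with a higher level of macrophage markers in general.

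**Figure D3:**
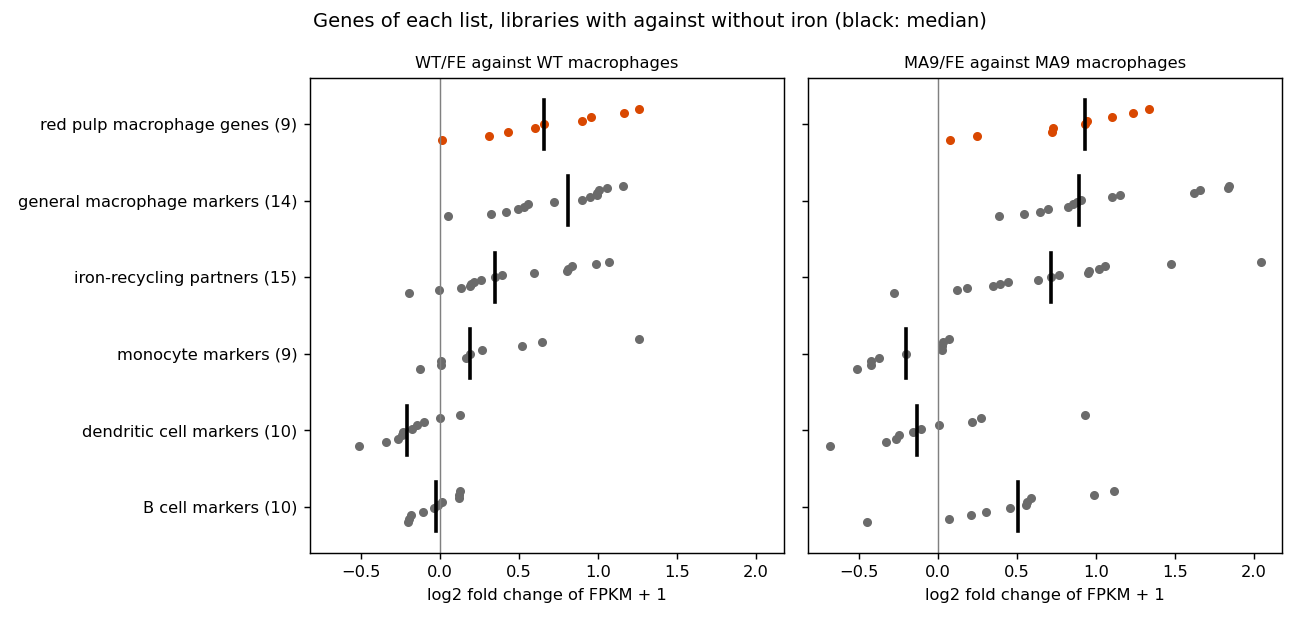
Log2 fold change of FPKM + 1 (horizontal axis) of single genes in 6 gene groups for WT/FE against WT (left) and MA9/FE against MA9 macrophages (right), with the number of genes in brackets, black bars for medians and the 9 genes left out of the other groups. The medians of the 9 genes, 0.66 and 0.93, lie near those of general macrophage markers, 0.81 and 0.89. The dendritic cell markers have medians of -0.21 and -0.14, and the B cell markers of -0.03 and 0.50.

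Other genes of red pulp and iron-recycling macrophages were counted next, not all of which act in iron recycling. Of 15 such genes, 13 were higher in WT/FE than in WT, 1 of 14 with enough reads was called, and the median was 0.35. In MA9/FE against MA9, 14 of 15 were higher, 4 were called and the median was 0.71. Slc40a1, which encodes the iron exporter ferroportin, was at 18.8 FPKM in WT, 40.8 FPKM in WT/FE, 17.6 FPKM in MA9 and 49.4 FPKM in MA9/FE macrophages. Hmox1, the enzyme that opens the heme ring, was at 104 FPKM in WT, 133 FPKM in WT/FE, 104 FPKM in MA9 and 167 FPKM in MA9/FE. Ftl1, the light chain of ferritin, was at 398, 458, 398 and 789 FPKM in the same order. Fcna, a lectin of spleen macrophages, was at 33.3, 67.2, 30.9 and 127 FPKM. Both libraries with iron were thus above both without it for these 4 genes, but not for every gene of the list. Fth1, the heavy chain of ferritin and the highest gene of the list, was at 928 FPKM in WT and 812 FPKM in WT/FE, and at 798 FPKM in MA9 and 1206 FPKM in MA9/FE. Epor, the erythropoietin receptor, was at 3.89 FPKM in both WT and WT/FE, and at 10.1 FPKM in MA9 and 7.94 FPKM in MA9/FE. Fth1 was therefore lower with iron without leukemia, and Epor was lower with iron in leukemic mice. Timd4, a receptor for dying cells on resident macrophages, was below 5 FPKM in every library, and Vsig4 was at most 0.335 FPKM in macrophages.

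Of the 10 transcription factors tied to red pulp macrophages, 6 were higher in WT/FE than in WT and none was called, and the same number exceeded MA9 in MA9/FE, with Spic alone called. Nr1h3, the liver X receptor α, was at 8.21 FPKM in WT and 13.4 FPKM in WT/FE, and at 11.2 FPKM in MA9 and 18.8 FPKM in MA9/FE macrophages. Bach1, the heme-sensing repressor, was at 11.9, 13.3, 13.5 and 10.2 FPKM in the same order. Spi1, which encodes PU.1, was between 96.3 and 116 FPKM. Pparg was at 2.43 FPKM in WT and 5.68 FPKM in WT/FE, and at 4.48 FPKM in MA9 and 7.37 FPKM in MA9/FE. At such low levels the addition of 1 FPKM lowers the fold, and Pparg was not called. Id3 was at 24.1 FPKM in WT, 22.2 FPKM in WT/FE, 15.4 FPKM in MA9 and 30.4 FPKM in MA9/FE. Spic therefore had larger ratios with iron than Bach1 or Spi1. In WT mice, however, Pparg had a larger ratio than Spic, and Nr1h3 a similar one. Of 7 genes of erythroblastic island macrophages, Vcam1, Cd163 and Siglec1 among them, 5 were higher with iron in each comparison, and Vcam1 was the only one called in either. Itga4, which encodes the integrin α4 chain that binds VCAM1, was at 45.8 FPKM in WT and 49.2 FPKM in WT/FE, and at 48.2 FPKM in MA9 and 24.7 FPKM in MA9/FE macrophages. Among these libraries Itga4 was lowest in MA9/FE, where Vcam1 was near its highest level.

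Markers of other cells were set beside the comparisons of iron, starting with those of B cells. Between WT/FE and WT their median log2 fold change was -0.03 and 4 of 10 were higher, whereas MA9/FE exceeded MA9 for 9 of 10, with a median of 0.50. For 9 of 10 neutrophil markers MA9 exceeded MA9/FE, with a median of -0.89. Dendritic cell markers had medians of -0.21 and -0.14 in the comparisons with iron. Of 10 T and NK cell markers, 0 were higher in WT/FE than in WT, with a median of -0.40. In MA9/FE against MA9, 8 of these 10 were higher, with a median of 0.21. Of 10 erythroid markers, 2 were called higher in WT/FE, and 3 were called higher and 1 lower in MA9/FE. Of 9 monocyte markers with enough reads, 1 was called higher in WT/FE, which was Ace, and none was called in MA9/FE. The part of these shifts in the values of the 9 genes was not tested.

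Macrophages of leukemic mice were then compared with those of mice without leukemia. In MA9 against WT none of the 9 genes was called, where 3.79% of 16925 genes were called higher and 0.91% lower. Cd5l came closest, at 1.85 times the WT level (1.68 to 2.03). Siglec1 was 1.40 times (1.16 to 1.68) and Treml4 1.20 times as high (1.11 to 1.30), and these 3 were the genes that were higher, where 49.5% of all genes tested were. Adgre1 had a ratio of 0.810, Aif1 of 0.772, Itgad of 0.861 and Spic of 0.870, with intervals below 1. Vcam1, at 0.954 (0.908 to 1.003), and Cd163, at 0.909 (0.788 to 1.05), had intervals that included 1.

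In MA9/FE against WT/FE macrophages none of the 9 was called either, where 2.93% of 16566 genes were called higher and 1.64% lower. Cd5l was again the highest, at 1.88 times (1.76 to 2.0005). Aif1 was 1.48 times (1.31 to 1.68), Spic 1.17 times (1.10 to 1.25) and Treml4 1.12 times as high (1.04 to 1.21), and 4 of the 9 were higher where 51.4% of all genes tested were. Itgad had a ratio of 0.747 (0.698 to 0.799), Siglec1 of 0.797 and Cd163 of 0.881, with intervals below 1. Adgre1, at 0.975 (0.926 to 1.03), and Vcam1, at 0.981 (0.948 to 1.02), had intervals that included 1. Without the trend on exon length, genes called higher and lower in this comparison went from 486 and 272 to 330 and 404, and none of the 9 was called. The direction of Treml4 and Vcam1 turned with it, from log2 fold changes of 0.16 and -0.03 to -0.01 and 0.11. The comparisons of leukemia and of iron share libraries, so they are not independent of each other.

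**Figure D4:**
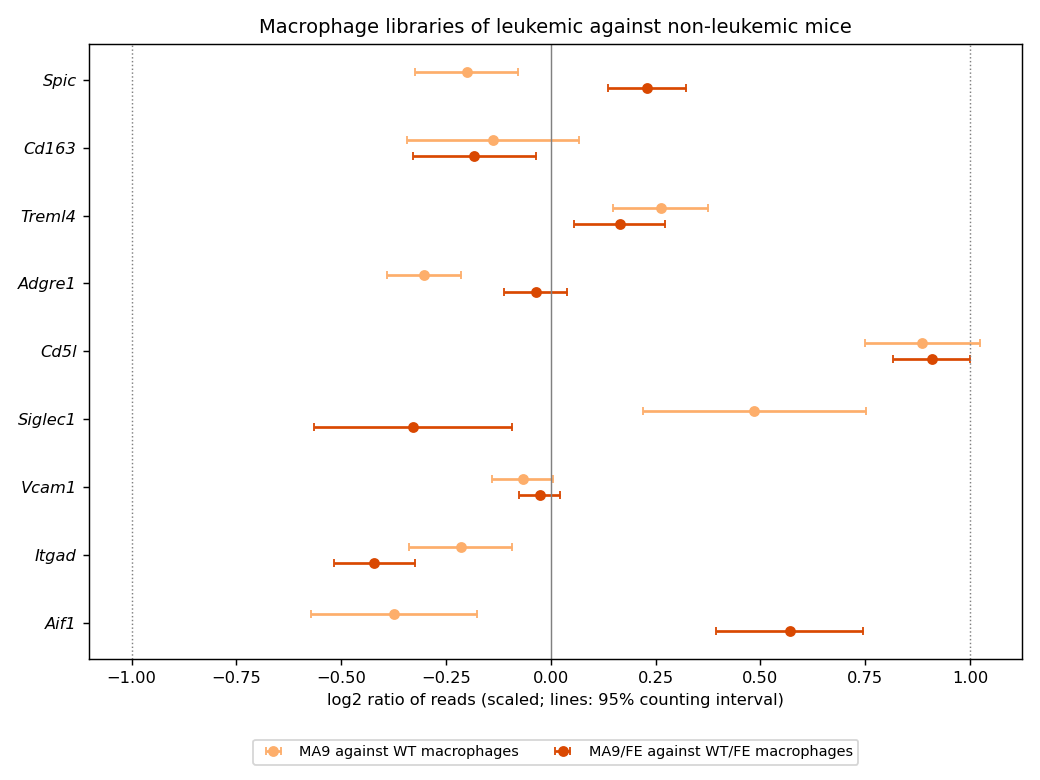
Log2 ratio of scaled reads (horizontal axis) of the 9 genes in macrophages of leukemic against non-leukemic mice, without iron (MA9 against WT) and with iron (MA9/FE against WT/FE), with 95% counting intervals; dotted lines mark 2-fold. Cd5l stands highest in both, at 0.89 and 0.91, and Spic, Siglec1 and Aif1 lie on opposite sides of 0.

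Leukemia cells served as the other sorted cell. By the labels they came from the BM and the macrophages from the spleen, so cell type and organ cannot be told apart here. In MA9 leukemia cells against MA9 macrophages, Spic, Treml4, Cd5l, Itgad and Aif1 were called lower, 5 of 9 where 12.7% of genes were called lower and 7.34% higher. Spic had a ratio of 0.0220, Treml4 of 0.0261, Cd5l of 0.0374 and Itgad of 0.0660, and Aif1 one of 0.373. Cd163 was the only one of the 9 that was higher, at 1.62 times (1.42 to 1.85). In MA9/FE leukemia cells against MA9/FE macrophages, 7 of 9 were called lower where 13.2% of genes were and 9.6% were called higher. Cd163, at 0.873 (0.785 to 0.971), and Adgre1, at 0.514 (0.483 to 0.547), were the genes not called. Adgre1 is a gene of the gate, so its difference between the sorts is no result.

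In leukemia cells with and without iron, none of the 9 genes was called, where 0.435% of 15412 genes were called higher and 0.428% lower. Cd163 was 1.13 times as high with iron (1.01 to 1.26) and Vcam1 had a ratio of 0.856 (0.797 to 0.919). The other 7 had intervals that included 1, and Spic, with its few reads, had one of 0.405 to 1.54. Of the 9 genes 2 were higher, where 50.7% of all genes tested were, and the median log2 fold change was -0.08.

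Across the 6 libraries, 8 of the 9 genes followed the split between macrophages and leukemia cells, and Cd163 did not. By the labels this split is also one between spleen and BM. Pearson correlations of log2(FPKM + 1) of Cd163 with the other genes lay between -0.13 and 0.45, whereas Spic and Itgad had one of 0.99. With 6 libraries of different cells and no replicates these values are a description. Among 5334 other genes, the 5 with the pattern most like the mean of the 9 genes were Slc16a9, Lilra5, Abcc3, Adrb1 and Pla2g7, with correlations between 0.997 and 0.999 over the 6 libraries. Pla2g7, a secreted phospholipase, was at 8.61 FPKM in WT, 16.9 FPKM in WT/FE, 7.51 FPKM in MA9 and 15.3 FPKM in MA9/FE macrophages. In leukemia cells Pla2g7 was at 0.341 FPKM in MA9 and 0.424 FPKM in MA9/FE. Abcc3, a transporter of organic anions, was at 4.39 FPKM in WT and 9.84 FPKM in WT/FE, and at 4.82 FPKM in MA9 and 9.34 FPKM in MA9/FE macrophages. Pla2g7 and Abcc3 were picked by their likeness to the mean of the 9 genes, so their higher levels with iron follow from that choice.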

How the data were processed

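The 6 RNA-seq libraries, 1 per group, were grouped by the sample labels. The values deposited by the authors were FPKM of 54532 Ensembl genes. The submitters' processing notes name Bowtie2 2.2.5, RSEM and mm10, and whether reads were counted by strand was not given in the sources used here. Each FPKM was multiplied by its gene's summed exon length (GENCODE M21, GRCm38, 54495 of the genes) and divided by the value of 1 read in that library. Between 96.8% and 97.0% of values above 0 were whole reads within 0.05. Depth was 16085345 to 19518358 reads, so counting error was small for all but low genes.

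Pairs of libraries were scaled by the trimmed mean of M values (30% of M and 5% of A trimmed), and genes with at least 10 reads in 1 library of the pair were called at a fold of at least 2 on log2(FPKM + 1). Ratios of recovered reads have exact conditional binomial intervals and levels exact Poisson intervals, at 95%, for counting error only. The differences of log2 ratios between MA9 and WT have 95% intervals by a normal approximation from the reads, also for counting error only. No count model was run on the recovered reads because 1 library per group leaves no residual variation. The named genes were the 9 genes, the genes of 12 lists, the 5 genes of most similar pattern and the integrins related to Itgad. The members and lists were chosen with earlier results of these data known. Alternatives were a pseudocount of 0.1, no minimum or 50 reads, 3 other scalings, removal of a trend on exon length, division by summed general macrophage markers, and ratios of reads. Steps were tested on simulated data. Python 3.11.15, numpy 2.4.6, pandas 2.3.3, scipy 1.17.1, statsmodels 0.14.6 and matplotlib 3.10.9 were used.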

Additional observations from a re-analysis of the deposited data

Results flagged for a closer look

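Vcam1 was higher with iron in macrophages, at ratios of 2.31 in WT mice and 2.43 in MA9 mice, and lower with iron in leukemia cells, at a ratio of 0.856. Each group had 1 library, so that this difference between cell types, and by the labels between organs, was not tested beyond counting error.

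For 3 genes the ratio of leukemic to non-leukemic macrophages lay on opposite sides of 1 without and with iron. Spic had ratios of 0.870 and 1.17, Siglec1 of 1.40 and 0.797, and Aif1 of 0.772 and 1.48. The intervals of counting error excluded 1 in each case, and the differences were not tested against the spread between mice.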

How the results depend on the processing

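The number of the 9 genes past 2-fold stayed within 1.5 times its value under every alternative but one. Divided by the summed general macrophage markers, it went from 2 to 0 for WT/FE against WT and from 3 to 0 for MA9/FE against MA9 macrophages. That division sets the median log2 fold change of all genes to -0.66 and -1.04, so it gives levels relative to macrophage markers. Of the fold changes of single genes under the alternatives, 301 moved by less than the distance from middle to end of their counting interval. The other 50 moved by more, 30 under that division, 11 with a pseudocount of 0.1 and 9 without the trend on exon length. No called fold change turned. Of the uncalled ones, Treml4 and Vcam1 turned in MA9/FE against WT/FE without the length trend, and relative to the macrophage markers Spic and Treml4 turned there to -0.29 and -0.35, as did 4 genes with iron in WT and 6 in MA9 mice. Over all genes, 213 called for WT/FE against WT became 784 with a pseudocount of 0.1, 849 by ratios of reads, 481 with no minimum and 116 with at least 50 reads, and 406 for MA9/FE against MA9 became 1498, 1625, 731 and 234. No paired analysis was possible because each group had 1 library, and no replicate could be left out. Depth limits Spic, Treml4, Cd5l and Itgad in leukemia cells, with 18 to 67 reads.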
